A study of Mus musculus with 6 samples.

Results

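Slc4a1, Epb4.2, Hemgn, Trim10, Alas2 and Ank1, genes of the red cell membrane and of late erythroblast maturation, were 6 of the 14865 genes in a table of poly-A RNA-seq values from the cochlear duct of mice at postnatal day 8. They were chosen by their symbols after earlier results of the same genotype comparison were known, partly on their levels in these libraries, so their differences between genotypes are a description and carry no p-value. There were 3 libraries of Gfi1+/+ mice, each from the 2 cochleae of 1 mouse, and 3 libraries of Gfi1cre/+ mice, each from 6 cochleae pooled over 3 mice. The labels give the strain of all mice as C57BL/6, and per the methods the Gfi1Cre line was kept on C57BL/6J. In Gfi1cre/+ mice, Cre replaced part of 1 copy of Gfi1, a zinc finger repressor needed by hair cells and by blood cell precursors, and was driven by that locus in every cell that uses it. Pooling went with genotype throughout, so pooling and genotype cannot be told apart.

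Red cells arise from nucleated erythroblasts, which switch on the globins, the enzymes of heme synthesis and the proteins of the membrane skeleton under the transcription factors GATA1, TAL1 and KLF1. They then lose the nucleus and become reticulocytes, which keep globin mRNA for some time while most other messages decay. Globin mRNA can therefore come from blood in the vessels of any tissue, whereas mRNA of many membrane and maturation genes is richest in precursors, which in young mice are found in bone marrow, spleen and liver. In a whole tissue, fewer cells of a type and less RNA per cell cannot be told apart.

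Values were read counts divided by 1 size factor per library, called normalized reads here. The libraries held between 13603908 and 19359753 reads on the listed genes, and 3 reads, taken as the floor of detection, were worth 2.61 to 3.70 normalized reads. Gfi1 itself stood at 147, 160 and 152 normalized reads in the Gfi1+/+ libraries and at 136, 130 and 139 in the Gfi1cre/+ libraries, so every Gfi1cre/+ library was below every Gfi1+/+ library. Its log2 fold change was -0.18, with an adjusted p of 0.9992 (limma with Benjamini-Hochberg adjustment). The study likewise reported no significant fall, and stated that the transcript part not replaced by Cre still adds reads. All 13 genes of a list of cochlear duct markers were in the table, among them Gjb2, Oc90 and Otoa, with a median log2 fold change of -0.03. Xist was at 7338 to 8138 normalized reads in the Gfi1+/+ libraries and at 2301 to 5359 in the Gfi1cre/+ libraries, and the Y-linked Ddx3y was at 0 in all 3 Gfi1+/+ libraries and at 232 to 485 in the Gfi1cre/+ libraries. Genotype, pooling and the sex of the mice therefore cannot be told apart in any value below. Gfi1+/+ replicate 1 stood apart in neuronal genes, with Slc32a1 at 115 normalized reads against 0 to 5.24 in the other 5 libraries.

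Slc4a1 (ENSMUSG00000006574; chr11:102348824-102366203, minus strand, GRCm38) encodes band 3, the anion exchanger that carries chloride and bicarbonate across the red cell membrane and anchors the skeleton beneath it. It was at 30.9, 50.3 and 81.2 normalized reads in the Gfi1+/+ libraries and at 851, 178 and 168 in the Gfi1cre/+ libraries. The groups did not overlap, and Gfi1cre/+ replicate 1 stood far above the other two. The means were 54.1 ± 25.4 and 399 ± 392 normalized reads (SD, n = 3 each), a log2 fold change of 2.53 with a standard error of 0.58 on the log2(value + 1) scale used for all fold changes. Without Gfi1cre/+ replicate 1, the mean of the other two was 173 normalized reads, 3.19-fold that of the Gfi1+/+ libraries.

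Epb4.2 (Epb42 in the GENCODE annotation, ENSMUSG00000023216; chr2:121017891-121037072, minus strand) encodes protein 4.2, which binds band 3 and ankyrin at the inner face of the membrane. It was at 1.23, 2.09 and 4.22 normalized reads in the Gfi1+/+ libraries, which came from 1, 2 and 4 reads, and at 61.8, 15.1 and 12.3 in the Gfi1cre/+ libraries, from 71, 17 and 13 reads. As for Slc4a1, the groups did not overlap and Gfi1cre/+ replicate 1 was highest. The means were 2.51 ± 1.54 and 29.7 ± 27.8 normalized reads (SD, n = 3 each), a log2 fold change of 2.85 with a standard error of 0.82. The mean of Gfi1cre/+ replicates 2 and 3 was 5.44-fold that of the Gfi1+/+ libraries.

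Ank1 (ENSMUSG00000031543; chr8:22974844-23150497, plus strand) encodes ankyrin 1, which ties band 3 to the skeleton and which is also made outside the blood, in muscle and in some neurons. It was at 117, 106 and 79.1 normalized reads in the Gfi1+/+ libraries and at 128, 87.9 and 98.1 in the Gfi1cre/+ libraries. The groups overlapped and the means, 100.7 ± 19.6 and 105 ± 20.8 normalized reads (SD, n = 3 each), lay within their spread. The log2 fold change of 0.06 had a standard error of 0.19. Without Gfi1+/+ replicate 3 it became -0.11, and without Gfi1cre/+ replicate 1 it became -0.10. The annotation gives Ank1 17 transcripts, and the counts do not tell the erythroid from the other ones. Of its exon bases, 6.37% overlap a gene on the opposite strand, Gm15816, and the strand setting of the counting was not given in the sources used here.

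Alas2 (ENSMUSG00000025270; chrX:150547375-150570638, plus strand) encodes the erythroid aminolevulinate synthase, the first and rate-limiting enzyme of heme synthesis in erythroblasts. It was at 352, 462 and 547 normalized reads in the Gfi1+/+ libraries and at 736, 803 and 492 in the Gfi1cre/+ libraries. Gfi1cre/+ replicates 1 and 2 were above all Gfi1+/+ libraries, while Gfi1cre/+ replicate 3 lay within their range. The means were 454 ± 98.1 and 677 ± 164 normalized reads (SD, n = 3 each), a log2 fold change of 0.57 with a standard error of 0.20. Alas2 shares 15.5% of its exon bases with Apex2 and Mir3620 on the opposite strand, so a part of its reads could not be assigned if strand was not used.

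Hemgn (ENSMUSG00000028332; chr4:46393989-46413506, minus strand) encodes hemogen, a nuclear protein of blood precursors that is kept on through erythroid differentiation. It was at 0, 2.09 and 2.11 normalized reads in the Gfi1+/+ libraries, which are 0, 2 and 2 reads, and at 81.8, 13.3 and 18.9 in the Gfi1cre/+ libraries, from 94, 15 and 20 reads. No Gfi1+/+ library passed the floor of 3 reads, and every Gfi1cre/+ library did. Against that floor, taken per library and averaged to 3.34 normalized reads, the Gfi1cre/+ mean of 38.0 ± 38.0 (SD, n = 3) was 11.4-fold higher. Without Gfi1cre/+ replicate 1 the mean of the other two was 16.1 normalized reads, 4.82-fold above the floor. The exact 95% intervals of the Gfi1+/+ counts reached 4.55, 7.56 and 7.62 normalized reads, above that floor. Counting error therefore allows smaller folds than these.

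Trim10 (ENSMUSG00000073400; chr17:36869574-36877833, plus strand) encodes a RING finger protein needed for terminal erythroid differentiation. It was at 4.94, 3.14 and 11.6 normalized reads in the Gfi1+/+ libraries, from 4, 3 and 11 reads, and at 65.3, 16.9 and 10.4 in the Gfi1cre/+ libraries, from 75, 19 and 11 reads. The groups overlapped, since Gfi1cre/+ replicate 3 was below Gfi1+/+ replicate 3. The means were 6.56 ± 4.46 and 30.8 ± 30 normalized reads (SD, n = 3 each), a log2 fold change of 1.81 with a standard error of 0.76. The mean of Gfi1cre/+ replicates 2 and 3 was 2.08-fold that of the Gfi1+/+ libraries.

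**Figure D1:**
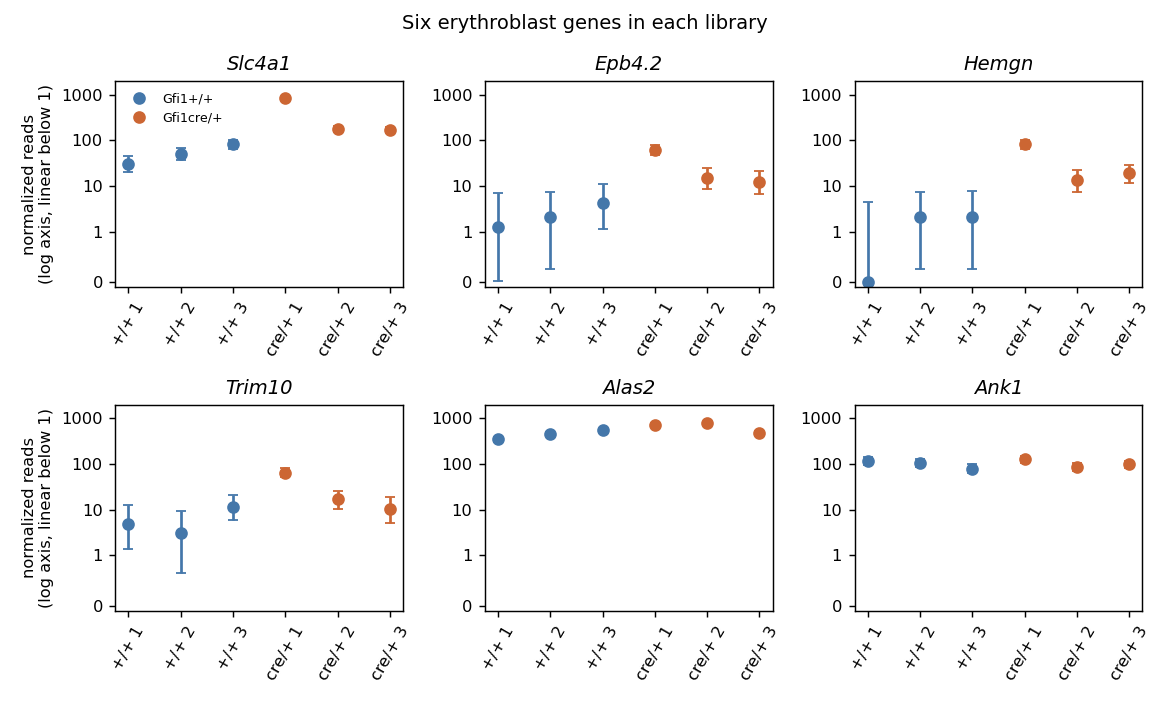
Normalized reads of each of the 6 genes (y axis, log scale, linear below 1) in each library (x axis; +/+ is Gfi1+/+ and cre/+ is Gfi1cre/+, with the replicate number), with bars for the exact Poisson 95% interval of the read count, which covers counting error only. Slc4a1, Epb4.2, Hemgn and Trim10 are highest in Gfi1cre/+ replicate 1 (851, 61.8, 81.8 and 65.3), whereas Alas2 spans 352 to 803 and Ank1 79.1 to 128, with overlapping groups.

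Over the 6 genes the median log2 fold change was 2.17, and it was the same with Hemgn set against the floor of 3 reads, beside -0.000116 over the 14455 genes tested. The libraries of 3 of the 6 genes (Slc4a1, Epb4.2 and Hemgn) did not overlap and were higher in Gfi1cre/+, as were those of 3.45% of all genes tested. The choice of the genes used this contrast, so nothing is read from that difference. Genes were tested where at least 1 library reached 40 normalized reads, and Epb4.2, Hemgn and Trim10 passed only through Gfi1cre/+ replicate 1, where they were high. Only 4 genes of the whole table passed an adjusted p of 0.05 between the genotypes (0.0277% of those tested; limma with Benjamini-Hochberg adjustment), and none of them was one of the 6.

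Levels between genes were compared per kilobase of exon. In the Gfi1+/+ libraries the mean was 188.8 normalized reads per kilobase for Alas2, 11.1 for Slc4a1, 7.45 for Ank1, 2.92 for Trim10, 0.557 for Hemgn and 0.464 for Epb4.2. The ranges of Slc4a1 and Ank1 overlapped, as did those of Hemgn and Epb4.2. In the Gfi1cre/+ libraries the order by mean was Alas2 at 281.8, Slc4a1 at 81.6, Hemgn at 15.1, Trim10 at 13.7, Ank1 at 7.74 and Epb4.2 at 5.49 normalized reads per kilobase. The places of Hemgn and Trim10 above Ank1 rest on replicate 1, since in replicates 2 and 3 Hemgn was at 5.30 and 7.51, Trim10 at 7.51 and 4.62 and Ank1 at 6.50 and 7.25, with overlapping ranges. Hba-a2, an adult alpha globin gene, was far above all of them, with a mean of 25880 in Gfi1+/+ and 37480 in Gfi1cre/+ libraries per kilobase.

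The promoter sequences are shown because 4 of the 6 genes moved together in 1 library and all 6 are genes of a lineage set up by GATA1, whose recognition sites have the core GATA. Promoters were taken from RefSeq (GRCm38.p6) as the 250 bases before the start of transcription. They were searched on both strands for AGATAA with its variant AGATAG, together with the form TGATAA with its variant TGATAG. The promoters of Epb4.2, Hemgn, Trim10, Alas2 and Hba-a2 were matched, and Slc4a1 and Ank1 were not in the table. Each of the 5 held 1 match, and 26.5% of 32851 promoters of the same length held at least 1. The matches start 226 bases before the start of transcription in Epb4.2, 13 in Hemgn, 163 in Trim10, 86 in Alas2 and 186 in Hba-a2. The stretches around them are printed 5′ to 3′ in the direction of the gene, with the match in capitals, where TTATCT is AGATAA on the other strand. They are chr2:121037073-121037127 for Epb4.2, chr4:46404184-46404213 for Hemgn, chr17:36869364-36869463 for Trim10, chrX:150547284-150547374 for Alas2 and chr11:32296259-32296358 for Hba-a2. The Hemgn match lies inside an annotated exon of another Hemgn transcript, so only 30 bases are shown. Distances are counted from the RefSeq start. Annotated exon begins 195 bases before that start in Epb4.2, 42 in Alas2 and 3 in Hba-a2. The Epb4.2 match thus lies nearer than 226 bases to the first annotated exon.
Epb4.2: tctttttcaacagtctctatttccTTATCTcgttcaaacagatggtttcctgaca
Hemgn: ctcacacctgtgcagtgTGATAAagaaagt
Trim10: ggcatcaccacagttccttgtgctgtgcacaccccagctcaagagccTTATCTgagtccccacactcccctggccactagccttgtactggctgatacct
Alas2: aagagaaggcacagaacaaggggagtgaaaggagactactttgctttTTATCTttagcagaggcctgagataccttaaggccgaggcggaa
Hba-a2: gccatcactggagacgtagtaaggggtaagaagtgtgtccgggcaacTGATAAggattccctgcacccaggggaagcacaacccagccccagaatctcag
The matches in Epb4.2, Trim10 and Alas2 have the same 6 letters, and those in Hemgn and Hba-a2 share another 6. A second motif, the CACCC box read by KLF1 and written CCNCNCCC, was found in the Hemgn promoter, as a run of G read on the other strand with 4 overlapping matches, and in that of Alas2, with 4 matches that partly overlap. It was in none of the other 3 promoters and in 45.9% of all promoters, and 8.19% of all promoters held both motifs. The CACCC matches of Alas2 lie within an annotated exon. A match of these letters is a description of the sequence and does not show binding.

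To set precursors against mature red cells, each gene was divided by Hba-a2 of the same library. Hba-a2 was at 14033, 18577 and 19172 normalized reads in the Gfi1+/+ libraries and at 27027, 30372 and 17596 in the Gfi1cre/+ libraries. Gfi1cre/+ replicate 3 lay within the Gfi1+/+ range and the other two above it. The 4 globin genes in the table together took 0.173% to 0.254% of the reads in Gfi1+/+ and 0.222% to 0.39% in Gfi1cre/+ libraries. Hba-a1 and Hba-a2 are nearly identical copies and only uniquely mapped reads were counted, so the split of reads between them is uncertain, and Hba-a1 was counted at 12.3% to 15.4% of Hba-a2.

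Alas2 went with globin. It was at 25.1, 24.9 and 28.5 reads per 1000 Hba-a2 reads in the Gfi1+/+ libraries and at 27.2, 26.4 and 27.9 in the Gfi1cre/+ libraries. The highest library was 1.15 times the lowest, a coefficient of variation of 5.66% over the 6 libraries, although Alas2 itself spanned 352 to 803 normalized reads. The log2 ratio differed between genotypes by 0.06 (Gfi1cre/+ minus Gfi1+/+), within the pooled SD of 0.08. Pearson's r between Alas2 and Hba-a2 over the 6 libraries, on log2(value + 1), was 0.984, and it was 0.979 without Gfi1cre/+ replicate 1; the points share the library and its size factor.

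The ratio of Slc4a1 to globin varied more. It was at 2.20, 2.71 and 4.24 reads per 1000 Hba-a2 reads in the Gfi1+/+ libraries and at 31.5, 5.84 and 9.54 in the Gfi1cre/+ libraries. Every Gfi1cre/+ library was above every Gfi1+/+ library, and replicate 1 was 4.09 times the mean of replicates 2 and 3. Gfi1cre/+ replicate 3 had less Hba-a2 than Gfi1+/+ replicate 3, and its ratio was the second highest. The difference in the log2 ratio was 2.02, with a pooled SD within groups of 0.94. Pearson's r with Hba-a2 over the 6 libraries was 0.755 for Slc4a1, 0.775 for Epb4.2, 0.733 for Hemgn, 0.724 for Trim10 and -0.12 for Ank1, and without Gfi1cre/+ replicate 1 it was 0.718, 0.728, 0.638, 0.671 and -0.62. The first 4 of these were positive and below the 0.984 of Alas2.

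Epb4.2 was at 0.088, 0.113 and 0.220 reads per 1000 Hba-a2 reads in the Gfi1+/+ libraries and at 2.29, 0.497 and 0.697 in the Gfi1cre/+ libraries. Hemgn was at 0, 0.113 and 0.110 in the Gfi1+/+ libraries and at 3.03, 0.438 and 1.07 in the Gfi1cre/+ libraries. For both, the groups did not overlap. Against the floor of 3 reads the mean ratio of Hemgn was 7.59-fold higher in Gfi1cre/+, and 3.79-fold higher without replicate 1. Counting error in the Gfi1+/+ libraries allows smaller folds. Trim10 was at 0.352, 0.169 and 0.605 reads per 1000 Hba-a2 reads in the Gfi1+/+ libraries and at 2.42, 0.555 and 0.590 in the Gfi1cre/+ libraries. Only replicate 1 of the Gfi1cre/+ libraries was above all Gfi1+/+ libraries for Trim10. Ank1 was at 8.36, 5.69 and 4.13 in the Gfi1+/+ libraries and at 4.73, 2.89 and 5.58 in the Gfi1cre/+ libraries, with a log2 difference of -0.45 that lay within the pooled SD of 0.50.

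**Figure D2:**
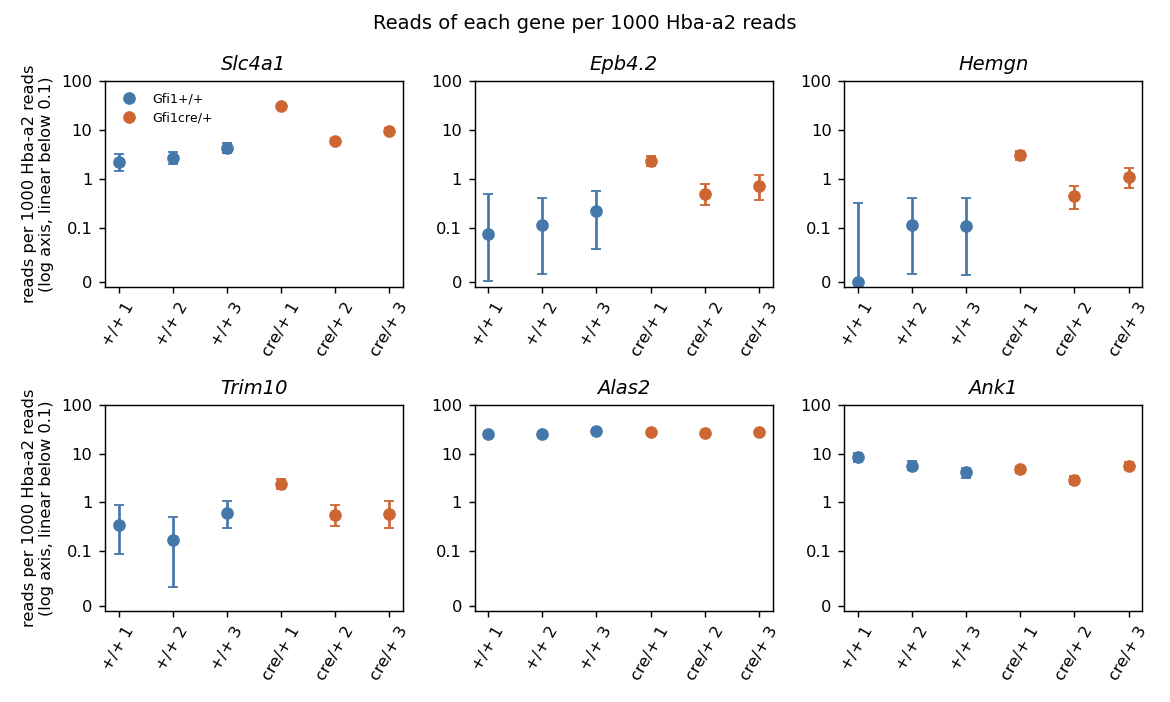
Reads of each gene per 1000 Hba-a2 reads (y axis, log scale, linear below 0.1) in each library (x axis, genotype and replicate), with exact 95% intervals for counting error only. Alas2 stays between 24.9 and 28.5 in all 6 libraries, while Slc4a1 runs from 2.20 to 31.5.

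The proportions of the 4 genes to each other were also set side by side within each library. Epb4.2 was at 4%, 4.17% and 5.19% of the Slc4a1 reads in the Gfi1+/+ libraries and at 7.26%, 8.5% and 7.30% in the Gfi1cre/+ libraries. In Gfi1cre/+ replicate 1, where Slc4a1 had 978 reads, the exact 95% interval of that share was 5.62% to 9.24%, and in replicates 2 and 3, with 200 and 178 Slc4a1 reads, the intervals were 4.85% to 14.0% and 3.81% to 12.8%. A difference in the Epb4.2 share between Gfi1cre/+ replicate 1 and the other two was thus not detectable at this depth. Such intervals cover counting error only. In the Gfi1+/+ libraries the share rests on 1 to 4 Epb4.2 reads, and the interval in replicate 1 reached 24.4%.

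Hemgn was at 9.61%, 7.5% and 11.2% of the Slc4a1 reads in the Gfi1cre/+ libraries, again with overlapping intervals (7.69% to 11.9%, 4.12% to 12.7% and 6.70% to 17.9%). In the Gfi1+/+ libraries it was at 0%, 4.17% and 2.60%, from at most 2 Hemgn reads. Trim10 was at 7.67%, 9.5% and 6.18% of the Slc4a1 reads in the Gfi1cre/+ libraries and at 16.0%, 6.25% and 14.3% in the Gfi1+/+ libraries. So the 4 genes kept near proportions among the Gfi1cre/+ libraries while their level differed about as much between replicate 1 and the others for each of them. The ratio of replicate 1 to the mean of replicates 2 and 3 was 4.93 for Slc4a1, 4.52 for Epb4.2, 5.08 for Hemgn and 4.79 for Trim10, against 1.14 for Alas2, 1.38 for Ank1 and 1.13 for Hba-a2.

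Slc4a1 against Alas2 showed the split within the 6 genes most plainly. Slc4a1 was at 8.77%, 10.9% and 14.8% of the Alas2 reads in the Gfi1+/+ libraries and at 115.6%, 22.1% and 34.2% in the Gfi1cre/+ libraries. The intervals of the Gfi1cre/+ libraries, 105.0% to 127.0%, 18.9% to 25.8% and 28.7% to 40.6%, did not overlap each other, so the libraries of this genotype differed by more than counting error. The lower end for replicate 2, 18.9%, equalled the upper end for Gfi1+/+ replicate 3 at this precision. Ank1 ran the other way against Slc4a1, at 380.0%, 210.4% and 97.4% of its reads in the Gfi1+/+ libraries and at 15.0%, 49.5% and 58.4% in the Gfi1cre/+ libraries, with Ank1 itself nearly level.

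**Figure D3:**
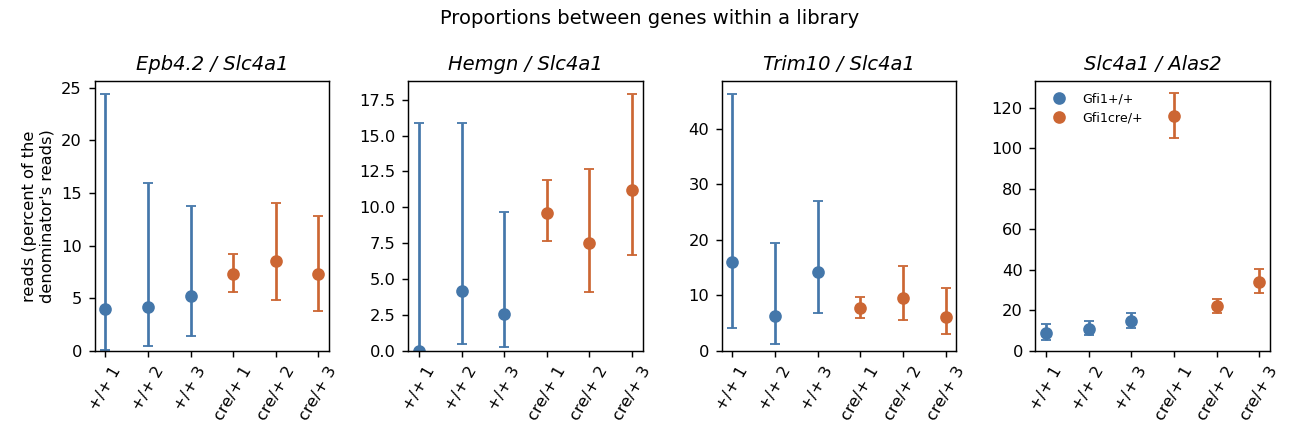
Reads of 1 gene as a percent of the reads of another (y axis, linear, own scale in each panel) in each library (x axis, genotype and replicate), with exact 95% intervals for counting error. Epb4.2, Hemgn and Trim10 hold overlapping shares of Slc4a1 in the 3 Gfi1cre/+ libraries, and Slc4a1 reaches 115.6% of Alas2 in Gfi1cre/+ replicate 1 against 8.77% to 34.2% elsewhere.

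The profiles of the genes over the libraries fell the same way. On log2(value + 1), Pearson's r with Slc4a1 over the 6 libraries was 0.995 for Epb4.2, 0.977 for Hemgn, 0.943 for Trim10, 0.802 for Alas2 and 0.244 for Ank1. Without Gfi1cre/+ replicate 1, over 5 libraries, these were 0.991, 0.968, 0.821, 0.806 and -0.63. Ank1 thus changed sign with that 1 library. The libraries are few and fall into 2 genotypes, so these values describe the profiles only.

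Among all other tested genes, the profiles nearest to the mean of the 6 genes, each centred on its own mean, were those of Ttc26 (r = 0.989), Fez2 (0.987) and E2f2 (0.985) over the 6 libraries. E2f2, a cell cycle transcription factor that acts in erythroblasts, was at 65.4, 84.8 and 94.9 normalized reads in the Gfi1+/+ libraries and at 188, 128 and 108 in the Gfi1cre/+ libraries. Its groups did not overlap and replicate 1 was the highest, but E2f2 was picked for its likeness to that profile, so nothing is read from this. Slc25a37, the mitoferrin that brings iron into mitochondria for heme synthesis, was eighth (0.970). It was the only gene of the 10 nearest that is on the wider erythroid list described below. Of the 10 nearest genes, 0 were also among the 10 nearest once Gfi1cre/+ replicate 1 was left out, when Itgam, Lingo3 and Mxra7 led.

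A wider set of 74 erythroid genes, written from general knowledge with earlier results of these data known, held 63 tested genes beside the 6 and 11 that were not listed in the table. Of the 63, 50 were higher in Gfi1cre/+ and 13 lower by any amount, with a median log2 fold change of 0.07 against -0.000116 over all genes tested. By limma 0 passed an adjusted p of 0.05. By the looser rule of a fold above 2 with an unadjusted p under 0.05, which 0.104% of all tested genes met in the upward direction, 3 of the 63 were higher and 0 lower. An unadjusted p under 0.05 by itself was met upward by 9 of the 63 and by 1.02% of all genes, and downward by 0 of the 63. The libraries of 7 of the 63 did not overlap and were higher in Gfi1cre/+, beside 3.45% of all genes. Among these, Ermap, Cldn13, Kel and Gata1 reached the filter of 40 normalized reads only in Gfi1cre/+ replicate 1.

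The genes higher by the looser rule were all on the membrane list, and Ermap and Cldn13 are described here. Ermap, an erythroid blood group protein, was at 4.94, 19.9 and 22.1 normalized reads in the Gfi1+/+ libraries and at 106, 31.1 and 31.1 in the Gfi1cre/+ libraries (log2 fold change 1.76, standard error 0.63). Cldn13, a claudin of mouse erythroid cells, was at 1.23, 0 and 5.27 and then at 40.9, 7.99 and 10.4 (2.75, standard error 1.09). Both showed the pattern of Slc4a1, with no overlap and with Gfi1cre/+ replicate 1 the highest. Without that library, 0 of the 63 met the looser rule.

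No other gene of the membrane list met the looser rule. Of its 18 tested genes 15 were higher and 3 lower, with a median log2 fold change of 0.04. Its most abundant genes, Aqp1, Tmod1, Epb4.1, Slc29a1, Sptb and Dmtn, at means of 826 to 4201 normalized reads in Gfi1cre/+ libraries, had log2 fold changes of -0.05 to 0.07. Like Ank1, these water channel, nucleoside transporter and skeleton genes are used by many cell types.

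Of the 15 tested heme and iron genes beside Alas2, 11 were higher and 4 lower, none by the looser rule, with a median log2 fold change of 0.05. Slc25a37 was at 689, 738 and 734 normalized reads in the Gfi1+/+ libraries and at 986, 846 and 776 in the Gfi1cre/+ libraries, without overlap (log2 fold change 0.26, standard error 0.09). Those with the most reads were Steap3, Slc25a39, Alad, Fech, Urod and Tfrc, which encode ferrireductase, carrier, heme synthesis and iron uptake proteins. Their log2 fold changes ran from -0.18 for Tfrc to 0.05 for Alad. Every cell makes heme, and Alas2 was the 1 enzyme of the pathway on the list that is particular to the red cell lineage.

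The 4 globin genes were all higher in Gfi1cre/+ by their means, with a median log2 fold change of 0.53, but the groups overlapped for each of them because of Gfi1cre/+ replicate 3. Their log2 fold changes were 0.51 for Hba-a2, 0.49 for Hbb-bs, 0.60 for Hba-a1 and 0.56 for Hbb-bt, beside 0.57 for Alas2. None met the looser rule. The embryonic globins Hba-x, Hbb-y and Hbb-bh1 and the alpha globin chaperone Ahsp were not listed in the table.

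Of the 26 tested regulators and maturation genes beside Hemgn and Trim10, 20 were higher and 6 lower, none by the looser rule, with a median log2 fold change of 0.10. Gata1, the master regulator of the lineage, was at 0, 3.14 and 4.22 normalized reads in the Gfi1+/+ libraries and at 40.04, 9.76 and 6.60 in the Gfi1cre/+ libraries. Tal1, its partner, was at 40.7, 53.4 and 60.1 and then at 89.6, 68.3 and 70.8. The groups did not overlap for either, whereas those of Klf1, at 22.2, 28.3 and 29.5 and then at 75.7, 33.7 and 28.3, did. These 3 were named after their values were seen, since they read the promoter motifs above or form their complex. The genes of this list with the most reads, Car2, Prdx2, Ldb1, Foxo3, Zfpm1 and Bnip3l, had log2 fold changes of -0.02 to 0.11.

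Gfi1cre/+ replicate 1 was more than 2-fold above the mean of Gfi1cre/+ replicates 2 and 3 in 28 of the 14455 tested genes (0.194%). These included 4 of the 6 genes (Slc4a1, Epb4.2, Hemgn and Trim10) and 10 of the 63 wider erythroid genes (15.9%). Among the 10, named after their values were seen, were Kel, Gata1, Rhd, Cldn13, Ermap, Klf1, Nxpe2 and Tspo2. Kel, a blood group endopeptidase, was at 54.0 normalized reads in Gfi1cre/+ replicate 1 and at 7.99 and 7.55 in the other two. Rhd, the Rhesus protein, was at 86.2 against 16.9 and 21.7. In the Gfi1+/+ libraries Rhd was at 15.7 to 17.9 normalized reads, a range that held the lower of the 2 other Gfi1cre/+ libraries.

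With Gfi1cre/+ replicate 1 left aside, both other Gfi1cre/+ libraries were above every Gfi1+/+ library for Slc4a1, Epb4.2 and Hemgn and for 8 of the 63 wider genes (12.7%), as they were for 7.59% of all tested genes. Trim10, Alas2 and Ank1 overlapped. In the 4 genes the distance between the genotype means was thus larger with that library than without it.

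**Figure D4:**
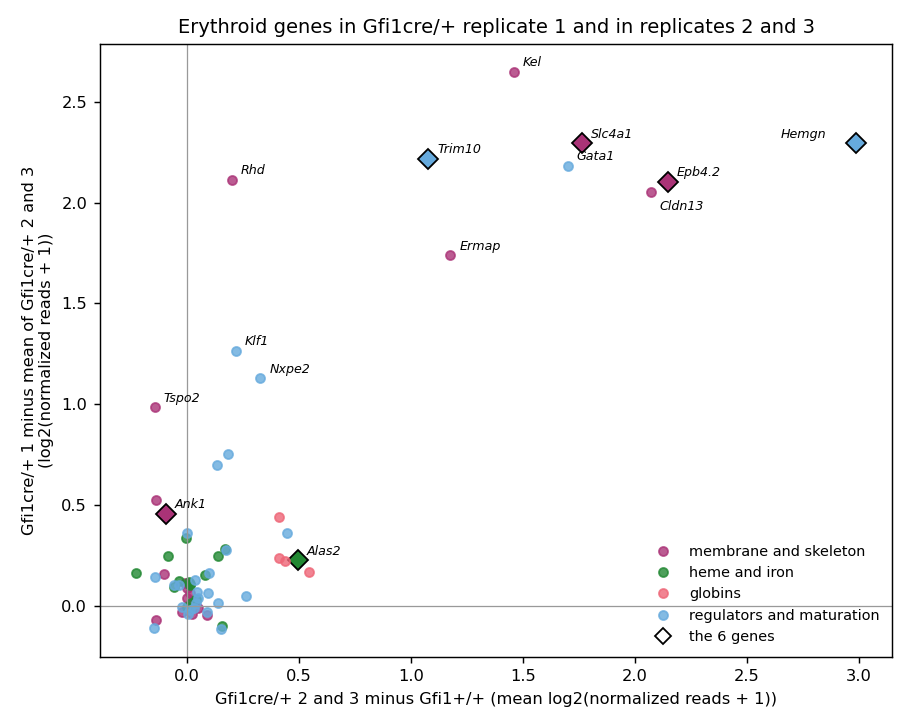
Each point is 1 of the 6 genes (diamonds) or of the wider erythroid genes described here (circles, coloured by list). The x axis is the mean log2(normalized reads + 1) of Gfi1cre/+ replicates 2 and 3 minus that of the Gfi1+/+ libraries, and the y axis is Gfi1cre/+ replicate 1 minus the mean of replicates 2 and 3 on the same scale. Slc4a1, Epb4.2, Hemgn and Trim10 lie at the upper right with Ermap, Cldn13, Kel and Gata1, Alas2 lies with the globins, and Ank1 lies toward the origin, where most other genes are.

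Other cell types that bone marrow or blood could bring were read from lists of their markers. For granulocyte precursors, 6 of 13 markers were listed, and all 6 were higher in Gfi1cre/+ by any amount. By the looser rule 4 of them were higher (Mpo, Ltf, Ngp and S100a9), beside 0.104% of all tested genes. Mpo and Ltf reached the filter of 40 normalized reads only in Gfi1cre/+ libraries. The least raised marker, at a log2 fold change of 0.02, was lower in Gfi1cre/+ replicates 2 and 3 than in every Gfi1+/+ library. The median log2 fold change of the 6 markers was 1.83. Their summed level was 61.7, 78.5 and 271.1 normalized reads in the Gfi1+/+ libraries and 460.4, 236.1 and 289.7 in the Gfi1cre/+ libraries, so it was highest in the library where Slc4a1 was highest, and Gfi1+/+ replicate 3, the highest of its group for Slc4a1, was also the highest for these markers. Mpo, the primary granule peroxidase, was at 6.17, 3.14 and 19.0 and then at 48.7, 33.7 and 79.3, with its peak in Gfi1cre/+ replicate 3 and not 1. Ngp, a secondary granule protein, was at 4.94, 4.19 and 44.3 and then at 96.6, 32.0 and 29.3. The part of marrow cells in the levels of Slc4a1, Epb4.2, Hemgn and Trim10 was not tested.

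The 10 osteoblast markers, led by Ibsp, Col1a1 and Spp1, were all listed, 9 of them higher and 0 by the looser rule, and summed to 37034.9 to 65376.8 normalized reads in Gfi1+/+ and 53249.8 to 57321 in Gfi1cre/+ libraries. The sum was highest in Gfi1+/+ replicate 3 and was the lowest of the Gfi1cre/+ libraries in replicate 1. Of 11 macrophage markers of the erythroblastic island 10 were listed, led by Csf1r, Vcam1 and Maf, with sums of 7803.6 to 8297.6 and 7808.7 to 8107.7. The 8 endothelial markers, led by Emcn, Cdh5 and Kdr, were all listed and summed to 8083.7 to 8600 and 8026.2 to 8987.1. Neither sum stood apart in Gfi1cre/+ replicate 1.

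Of 12 platelet markers 4 were listed (Itgb3, Pf4, Itga2b and Gp1bb), with sums of 1067.7 to 1110.9 in Gfi1+/+ and 1058.1 to 1148.3 in Gfi1cre/+ libraries, and of 10 B lineage markers 2 were listed (Rag1 and Blnk), with sums of 230.3 to 282.7 and 265.4 to 322.9. None of the genes of these 5 lists met the looser rule. The summed level of the 4 genes Slc4a1, Epb4.2, Hemgn and Trim10 was 37.0, 57.6 and 99.1 normalized reads in the Gfi1+/+ libraries. In the Gfi1cre/+ libraries it was 1060.1, 222.8 and 209.5, a wider span than that of any of these lists. The 4 genes were chosen partly on these values, so nothing is read from that difference. Slc4a1 alone gave 851 of the 1060.1 normalized reads in Gfi1cre/+ replicate 1.

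**Figure D5:**
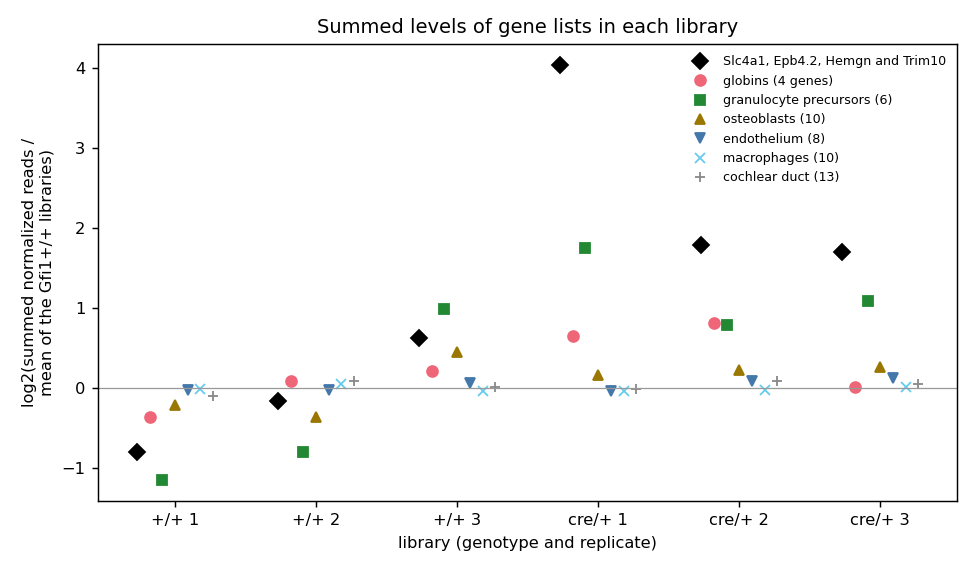
Summed normalized reads of each gene list in each library (x axis, genotype and replicate) as the log2 ratio to the mean of the 3 Gfi1+/+ libraries (y axis); each symbol is 1 list, with its number of genes in parentheses. The sum of Slc4a1, Epb4.2, Hemgn and Trim10, 1060.1 in Gfi1cre/+ replicate 1, rises farthest, the granulocyte list is also highest there at 460.4, and the endothelial, macrophage and cochlear duct lists stay near 0.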

How the data were processed

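Poly-A RNA of the cochlear duct was sequenced in 3 Gfi1+/+ and 3 Gfi1cre/+ libraries, replicates numbered in the labels. Per the study's methods and the submitters' notes, reads were aligned with TopHat to mm10, uniquely mapped reads were counted with HTSeq, and genes with few reads were dropped; versions, annotation and strand setting were not given in the sources used here. The methods name quantile normalization. The deposited signal of every gene was a whole read count divided by 1 size factor per library (100% of values whole), so reads were recovered from it.

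The main test was limma 3.58.1 in R 4.3.3 (trend, genotype only) on log2(value + 1) for the 14455 of 14865 genes that reached 40 normalized reads in any library, with Benjamini-Hochberg adjustment. This design, planned for normalized values, was kept; edgeR 4.0.16 and DESeq2 1.42.0 on recovered reads, other pseudocounts, filters, denominators, a replicate block and each library left out were alternatives. Read counts have exact Poisson 95% intervals, and shares of one gene in another have exact intervals of the ratio of 2 counts.

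The members and lists were chosen with earlier results of these data known. Named beside the 6 genes were, of each erythroid list, genes called by either rule and the 6 with the most reads; of each other list, those called and the 3 with the most reads; and the genes with the nearest profiles. Others were named after their values were seen, and some items are not reported here. Gene positions and exon lengths are from GENCODE M21 (GRCm38). With 3 libraries a group, p-values measure the spread between these libraries.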

Additional observations from a re-analysis of the deposited data

How the results depend on the processing

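Genes with a fold above 2 and an unadjusted p under 0.05 in either direction numbered 68, and 45 where the mean had to reach 40 normalized reads, 155 by edgeR, 147 by DESeq2 and 18 to 184 with 1 library left out. For the wider erythroid genes the count was 3, and 5 over all listed genes. It was 0 under that filter on the mean (which drops the low genes), 6 by edgeR and 7 by DESeq2. With 1 library left out it was 0 to 4. The 0 came without Gfi1cre/+ replicate 1, where Ermap and Cldn13 no longer reached 40 normalized reads and were not tested. The 4 genes with an adjusted p under 0.05 became 10 by DESeq2 and 0 to 48 with 1 library left out, the 0 without Gfi1cre/+ replicate 2 or 3 and the 48 without Gfi1+/+ replicate 3; 439 genes had an unadjusted p under 0.05 by limma. The median log2 fold change of the 6 genes, 2.17, was 1.28 with a pseudocount of 10, 0.57 under the filter on the mean, which leaves out Epb4.2, Hemgn and Trim10, and 1.42 to 2.64 with 1 library left out, lowest without Gfi1cre/+ replicate 1. The median log2 ratio to Hba-a2, 1.66, was 0.98 to 2.10 with 1 library left out, again lowest without that library. The 3 genes without overlap were 3 to 5 with 1 library left out, and 5 without Gfi1+/+ replicate 3 or Gfi1cre/+ replicate 3. The log2 fold change of Ank1 ran from -0.11 to 0.17 with 1 library left out. Its difference in the log2 ratio to Hba-a2, -0.45, became 0.056 with no denominator, which by definition is its log2 fold change. Slc4a1 stayed between 1.76 and 2.93, Alas2 between 0.40 and 0.78, Trim10 between 1.08 and 2.35, Epb4.2 between 1.46 and 3.54 and Hemgn, whose fitted value depends most on the pseudocount, between 1.80 and 5.13 over all alternatives run. Same-numbered libraries did not deviate together (correlations of -0.09, 0.11 and -0.03), and with a replicate block the counts were 69, 4 and 2 in the order above of all genes by fold, by adjusted p and wider erythroid genes, with a median of 2.17 for the 6 genes. Epb4.2, Hemgn and Trim10 rest on 0 to 11 reads in each Gfi1+/+ library, so their folds are imprecise.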
